A study of Mus musculus with 7 samples.

Results

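The mouse epiblast stem cell line C1a1 was compared with 5 other epiblast stem cell (EpiSC) lines, OG2.1, OG2.2, E3, E5 and T9, on Illumina bead arrays that measured total RNA. Members of the comparison were the genes whose signal in C1a1 lay above or below that of all 5 other EpiSC lines, and 3181 of the 8871 genes tested (35.9%) met this rule, 1590 above (17.9%) and 1591 below (17.9%). Such a count is not particular to C1a1. Each other line set against its own 5 others gave 2976 genes for OG2.1, 2994 for OG2.2, 3105 for E3, 3651 for E5 and 1796 for T9. A gene was tested if a probe for it was above background on at least 1 of the 6 EpiSC arrays, at a deposited detection p under 0.01. The embryonic stem cell (ESC) line R1 gave a reference value for each gene and took no part in the rule.

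All 7 lines were untreated as far as the labels state, and each was measured once on 1 array of its own. Strain, sex, embryo of origin, passage and culture conditions are not given in the labels. The 5 other lines therefore served as the replicates, p-values reflect how far the lines differ from each other, with culture and array effects included, and C1a1 as a line cannot be told apart from its single array. The labels also carry a field named spot14 gfp whose entry repeats the line's name, and whether a reporter is meant is not stated.

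EpiSCs are pluripotent cells that resemble the epiblast of the implanted embryo, while ESCs resemble that of the blastocyst before implantation. In the embryo, Nodal and Wnt signals induce the primitive streak and the organizer, the tissue that secretes inhibitors of BMP, Wnt and Nodal and sets up the body axis. Imprinted genes are read from 1 parental copy, interferons switch on genes of antiviral defence and antigen presentation, and the integrated stress response acts through the transcription factor ATF4. In sterol control, INSIG proteins hold the precursor of the transcription factor SREBP in the endoplasmic reticulum when sterols are plentiful.

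Promoters of 5 interferon-inducible GTPase genes that lay above all 5 other lines in C1a1 are printed first, because these genes recur among the results. Guanylate-binding proteins (Gbp) and immunity-related GTPases (Igtp, Irgm2) are both induced by interferon and act against intracellular pathogens. Each window runs from 250 bases before to 50 bases after the RefSeq start, 5′ to 3′ on the plus strand of build GRCm38.p6. Capitals mark the core of the interferon-stimulated response element (GAAANNGAA) and the gamma-activated site (TTCNNNGAA), searched on both strands. The windows are chr3:142559794-142560093 for Gbp3, chr3:142594597-142594896 for Gbp2b, chr3:142620413-142620712 for Gbp2, chr11:58199306-58199605 for Igtp and chr11:58214727-58215026 for Irgm2.
Gbp3: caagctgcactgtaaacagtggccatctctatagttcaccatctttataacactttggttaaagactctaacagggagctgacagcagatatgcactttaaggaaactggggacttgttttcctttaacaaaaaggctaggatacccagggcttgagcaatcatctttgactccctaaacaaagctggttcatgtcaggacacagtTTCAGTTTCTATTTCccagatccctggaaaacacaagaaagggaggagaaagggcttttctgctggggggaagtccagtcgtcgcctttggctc
Gbp2b: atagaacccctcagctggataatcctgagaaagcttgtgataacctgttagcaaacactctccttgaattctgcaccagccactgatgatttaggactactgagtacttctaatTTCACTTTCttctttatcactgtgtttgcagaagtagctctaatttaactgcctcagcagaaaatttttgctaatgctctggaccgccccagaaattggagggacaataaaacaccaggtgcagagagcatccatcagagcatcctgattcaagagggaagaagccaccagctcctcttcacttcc
Gbp2: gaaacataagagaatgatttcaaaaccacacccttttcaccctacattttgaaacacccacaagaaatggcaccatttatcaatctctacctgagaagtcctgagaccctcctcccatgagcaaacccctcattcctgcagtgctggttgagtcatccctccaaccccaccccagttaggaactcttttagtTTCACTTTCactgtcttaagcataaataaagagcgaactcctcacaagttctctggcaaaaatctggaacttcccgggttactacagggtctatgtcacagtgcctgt
Igtp: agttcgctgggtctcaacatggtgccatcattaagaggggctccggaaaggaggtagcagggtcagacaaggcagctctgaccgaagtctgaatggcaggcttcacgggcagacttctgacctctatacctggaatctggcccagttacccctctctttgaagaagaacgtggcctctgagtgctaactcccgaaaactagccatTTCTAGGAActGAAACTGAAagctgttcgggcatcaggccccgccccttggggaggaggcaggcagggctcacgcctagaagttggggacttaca
Irgm2: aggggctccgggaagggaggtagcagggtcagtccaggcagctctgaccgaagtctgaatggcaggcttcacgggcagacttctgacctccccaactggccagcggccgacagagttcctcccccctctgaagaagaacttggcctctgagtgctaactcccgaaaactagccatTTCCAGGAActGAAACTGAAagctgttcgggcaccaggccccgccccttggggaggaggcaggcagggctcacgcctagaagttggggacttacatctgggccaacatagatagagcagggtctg
The response element matched in all 5 windows, and Gbp3 had 2 overlapping matches. A second RefSeq start of Gbp3 had 0 matches in its window. The gamma-activated site matched in Igtp and Irgm2. Of 32851 mouse promoter windows of the same length, 8.56% held the response element and 8.30% the gamma-activated site. A match describes the letters and not a bound site. Igtp and Irgm2 fall outside the rule for naming genes and were picked with their values in view.

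Values given from here on are log2 intensities after background correction and normalization between arrays, and differences are C1a1 minus the mean of the other 5 lines on that scale. Among the 6 EpiSC lines, detection was broadest in C1a1, where 8047 of the tested genes were above background, against 7382 to 7700 in the other EpiSC lines and 7045 in R1. Of the tested genes, 221 were above background in C1a1 alone and entered through it, and 185 of these lay above all 5 others. The typical gap was small, with a median of 0.20 for genes above the highest other line and 0.16 for genes below the lowest. A gap of at least 1 was found for 47 genes above (0.53% of those tested) and 42 below (0.473%). By the probe that represented each gene, C1a1 was the only EpiSC line above background for 13 of the 47 and the only one below it for 17 of the 42. The genes nearest that limit were Apod (gap 1.00) and Shroom1 (0.98) above, and Gng13 (1.02) and Krtcap3 (0.99) below. For comparison, the counts of such genes above and below ran from 23 and 5 in T9 to 86 and 13 in OG2.1 and 47 and 99 in E5.

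The first question was which genes set C1a1 apart beyond the spread of the other lines. Limma, fitted across all genes, called 6 of 8871 at a Benjamini-Hochberg adjusted p under 0.05 (0.0676%), of which Xlr4a and Gbp3 rose (0.0225%) and Plk1, St14, Psmd8 and Ccl27a fell (0.0451%). At an unadjusted p under 0.05 there were 534 genes (6.02%). Chromosome positions were X for Xlr4a, 3 for Gbp3, 7 for Plk1 and Psmd8, 9 for St14 and 4 for Ccl27a.

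Xlr4a belongs to an X-linked lymphocyte-regulated gene family with near-identical copies. Its probe read 5.35 in OG2.1, 6.13 in OG2.2, 5.16 in E3, 5.31 in E5 and 6.43 in T9, against 11.84 in C1a1 and 12.24 in R1. C1a1 and R1 were both bright, while OG2.2 and T9 were faintly above background and OG2.1, E3 and E5 were not. The difference was 6.16 (SE 0.52, limma adjusted p = 0.036), the largest of the 8871 in size. Probes listed for Xlr4b, Xlr4c and Xlr3c were above background on 0 EpiSC arrays, and the copies could share signal on the Xlr4a probe.

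Gbp3, whose promoter is printed above, was at 4.97, 5.09, 5.28, 5.16 and 5.39 in OG2.1, OG2.2, E3, E5 and T9, at 7.66 in C1a1 and at 4.91 in R1. No line other than C1a1 was above background, so the gene entered the tested set only through the line in which it was high. The difference was 2.48 (SE 0.26, limma adjusted p = 0.039), at least 4.19-fold, and a second Gbp3 probe differed by 3.44. With no detection filter its adjusted p was 0.061, above the threshold. Such a lower bound is computed against the dimmest signal that counts as detected on each array.

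Plk1 encodes a kinase that drives entry into and passage through mitosis. It was at 11.06 in OG2.1, 11.49 in OG2.2, 10.71 in E3, 10.25 in E5 and 10.70 in T9, but at 6.61 in C1a1, with 10.14 in R1. C1a1 was low and the other 6 arrays were high. The fall was -4.24 (SE 0.44, limma adjusted p = 0.039) and rests on 1 probe.

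St14 encodes matriptase, a membrane serine protease of epithelia. The other lines lay between 7.33 in OG2.1 and 8.06 in E5, with 7.80 in OG2.2, 7.65 in E3 and 8.03 in T9. In C1a1 the gene was not above background (4.34), while R1 read 7.19. The fall was -3.44 (SE 0.33, limma adjusted p = 0.036), at least 5.25-fold lower, and a second probe gave -1.94.

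Psmd8, a subunit of the proteasome's regulatory particle, was at 10.52, 10.22, 10.63, 10.28 and 10.35 in OG2.1, OG2.2, E3, E5 and T9 and at 7.58 in C1a1. The chemokine gene Ccl27a was at 9.02, 9.06, 9.09, 8.81 and 9.03 in the same lines and at 6.30 in C1a1. Both were detected in C1a1 at a level close to that of R1, which read 7.53 for Psmd8 and 6.31 for Ccl27a. Psmd8 fell by 2.82 (SE 0.26) and Ccl27a fell by 2.70 (SE 0.24), each with a limma adjusted p of 0.036. Psmd8 rests on 1 probe. A second Ccl27a probe differed by -1.64, and near-identical copies of Ccl27a in the mouse genome can share its signal. The calls needed all 5 reference lines, since without OG2.1, OG2.2, E3 or E5 in turn 0 genes passed and without T9 only Xlr4a did (1 gene), but the differences changed little. They ran from 6.03 to 6.35 for Xlr4a, from 2.43 to 2.54 for Gbp3, from -4.39 to -4.08 for Plk1, from -3.55 to -3.36 for St14, from -2.86 to -2.76 for Psmd8 and from -2.75 to -2.68 for Ccl27a. With OG2.1 and OG2.2 averaged as 1 line 0 passed, and on the deposited normalized values only St14 did.

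The widest gaps were not limited to the called genes, because several of the genes with wide gaps also varied among the other lines. Above the highest other line, the order after Xlr4a was Gbp2b, Lhx1, Gbp3, Fos, Cpsf4l, Klf2, Bcas1, Acot1 and Gsc. Below the lowest, the order was Cdkn1c, Plk1, Nnat, St14, Haus1, Nptx2, Insig1, Psmd8, Epm2aip1 and Ccl27a. The immediate early gene Fos was at 10.18 in C1a1 against 6.38 to 7.97 in the other lines (difference 2.84), and at 9.87 in R1. Bcas1 was at 8.36 against 5.60 to 6.42 (2.30), Cpsf4l at 7.78 against 4.78 to 5.79 (2.63), and Acot1, an acyl-CoA thioesterase gene with near-identical copies, at 12.24 against 8.73 to 10.48 (2.70). On the low side, Haus1, a subunit of the spindle complex augmin, was at 6.15 in C1a1 and 6.20 in R1 against 9.07 to 9.99 in the other EpiSC lines (-3.29). For Epm2aip1 the 3 probes disagreed in size. The brightest was at 4.71 in C1a1 and 4.85 in R1 against 7.30 to 8.92 (-3.36), and the other probes differed by -1.32 and -0.27, the last one within the range of the other lines and above background in C1a1. For Nptx2, a secreted neuronal pentraxin gene, C1a1 was not above background at 4.55, whereas R1 read 9.09 and the other EpiSC lines 7.40 to 9.65 (at least 10.3-fold lower). None of these 7 passed limma's test, with adjusted p-values from 0.093 for Haus1 to 0.619 for Acot1.

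**Figure D1:**
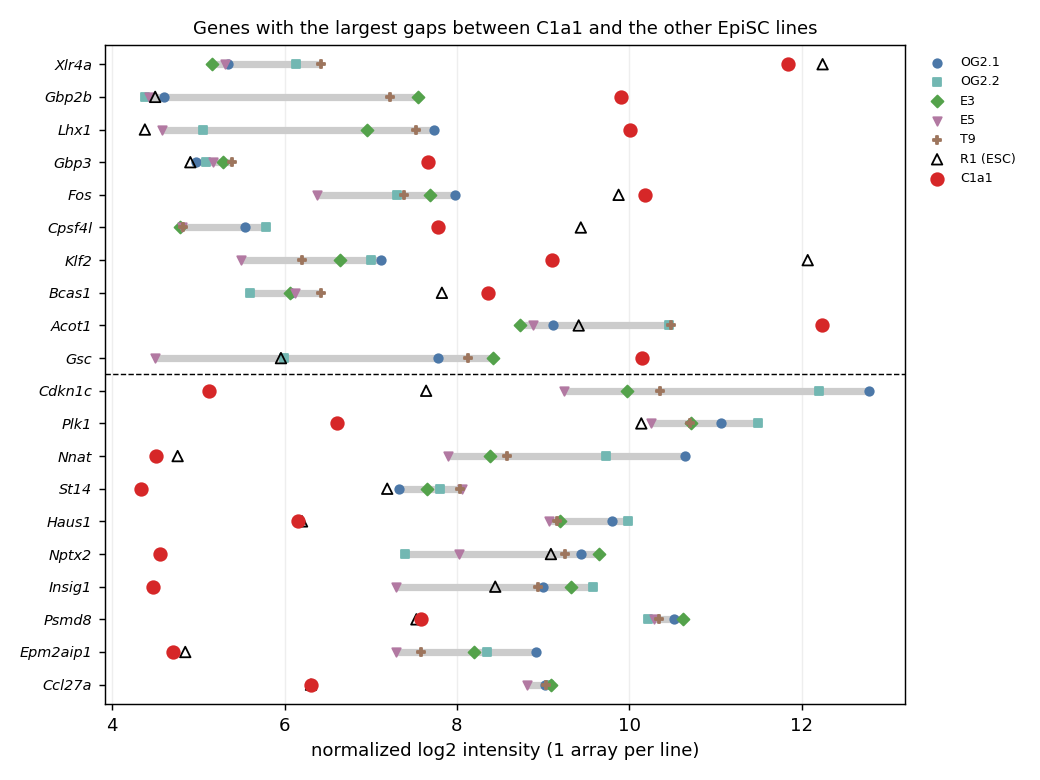
Normalized log2 intensity (horizontal axis) of the 10 genes with the widest gap of C1a1 above the highest other EpiSC line (upper part) and the 10 with the widest gap below the lowest (lower part). Each symbol is 1 array, C1a1 as large red circles and R1 as open triangles, and the grey bar spans the other 5 EpiSC lines. C1a1 lies outside every grey bar, by 5.41 for Xlr4a and by 4.12 below it for Cdkn1c.

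Of the 89 genes with a gap of at least 1 in either direction, 68 rested on 1 probe. The other 21 had 27 further probes above background, all 27 differed in the same direction and 26 lay outside the range of the other lines. Of all genes, 35.9% lay outside that range. Sizes could differ either way, as for Taf6 (-2.32 by the main probe, -0.21 by the other) and Fam177a (1.99 and 2.95).

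Genes of the organizer and of axial mesendoderm were mostly brighter in C1a1 than in the other lines, with Lhx1 and Gsc among the widest gaps. Of 24 listed genes 21 were tested, 19 had a positive difference (48.8% of all genes did), and 11 lay above all 5 others (52.4%, against 17.9% of all genes) and 0 below. The median difference was 1.68, against -0.01 over all genes, and 0 of the 21 passed limma's test. All 21 were above background in C1a1, against 19 in OG2.1, 17 in E3, 16 in T9, 15 in OG2.2, 5 in E5 and 10 in R1. For 2 of the 21, C1a1 was the only EpiSC line above background, so those 2 had to be higher.

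Lhx1 encodes a LIM homeodomain factor needed in the mouse organizer for head formation. It read 7.73 in OG2.1, 5.05 in OG2.2, 6.96 in E3, 4.57 in E5 and 7.53 in T9, against 10.01 in C1a1 and 4.38 in R1. C1a1 was the brightest line, and OG2.2, E5 and R1 were not above background. The difference of 3.64 (SE 1.22) did not pass limma's test (adjusted p = 0.758).

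Gsc, the gene of the organizer homeodomain factor Goosecoid, read 7.77, 5.99, 8.42, 4.50 and 8.13 in OG2.1, OG2.2, E3, E5 and T9, 10.14 in C1a1 and 5.96 in R1. C1a1 was again the highest and E5 the lowest. The difference was 3.18 (SE 1.39, limma adjusted p = 0.838).

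Several secreted inhibitors of the organizer, Lefty1, Cer1, Chrd, Nog and Fst, were at their highest level in C1a1, and the Wnt inhibitors Dkk1 (6.17, below OG2.1 at 6.83) and Frzb (5.60, below OG2.1 at 6.90), named outside the rule, were not. Lefty1, a Nodal inhibitor, was at 12.04 in C1a1 against 9.81, 8.40, 9.77, 5.67 and 10.52 in OG2.1, OG2.2, E3, E5 and T9 (difference 3.21). Cer1, which binds Nodal and BMP, was at 8.91 against 6.65, 5.43, 6.26, 4.55 and 7.77 (2.77). For both, C1a1 stood more than 1 above the next line, T9. The BMP antagonists Chrd (9.66 against 4.80 to 9.07) and Nog (7.47 against 4.31 to 6.85) followed with smaller gaps of 0.59 and 0.62, and OG2.1 was the next line in both. Foxd4, a forkhead gene, showed the second largest difference of the list at 3.50, but OG2.1 at 9.75 was close to C1a1 at 10.33. Shh, the ligand of axial midline signalling, was above background in C1a1 at 9.10 but higher in OG2.1 at 10.61.

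E5 weighed on these differences. It was the lowest line for Lhx1, Gsc, Lefty1, Cer1, Chrd, Nog, Foxd4 and Shh, and without E5 the list's median difference was 1.00 in place of 1.68, with 12 of 21 above the remaining 4 lines. Over the 5 members above background on all 6 EpiSC arrays the median was 0.17. In bulk RNA, more cells of a type and more RNA per cell cannot be told apart, so these levels do not say whether all C1a1 cells or some carried the organizer transcripts.

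**Figure D2:**
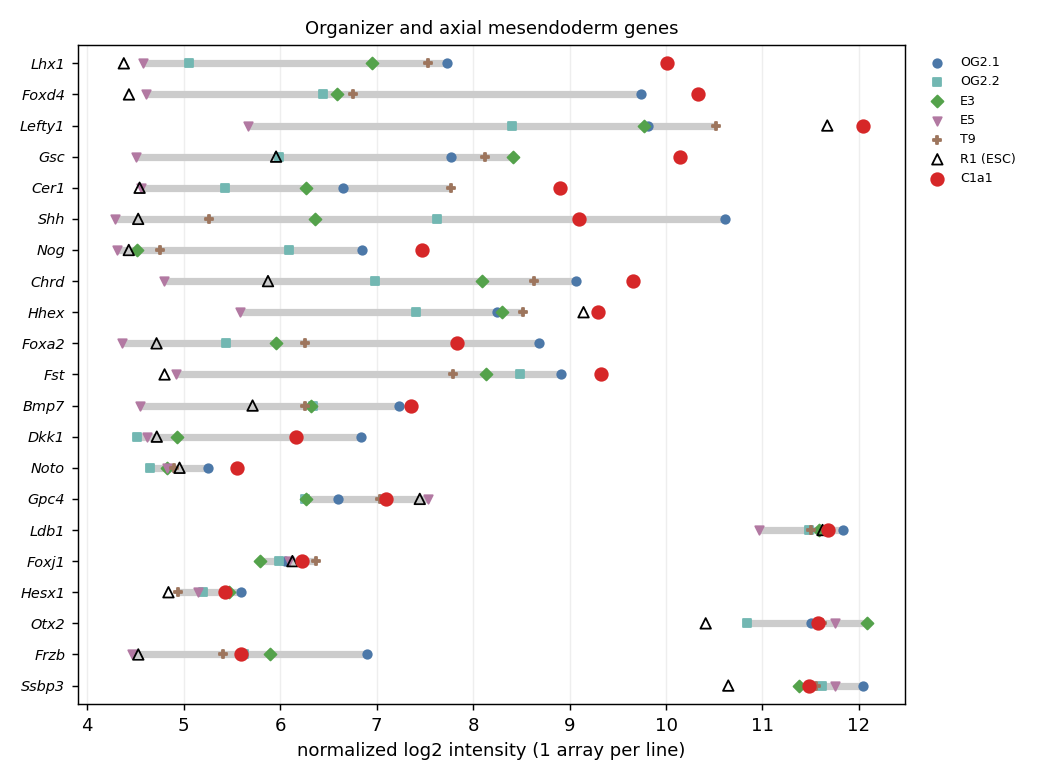
Normalized log2 intensity (horizontal axis) of the 21 tested organizer and axial mesendoderm genes, ordered by the difference of C1a1 from the mean of the other 5 EpiSC lines. Each symbol is 1 array and the grey bar spans the other 5 lines. C1a1 (red) lies to the right of the bar for 11 genes and E5 (triangles pointing down) forms the left end of most long bars.

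Primitive streak genes had 8 of 15 tested members above all 5 other lines (53.3%, against 17.9% of all genes) and 1 below. Their median difference was 0.85, and only 1 of the 15 was above background on all 6 EpiSC arrays. The lists share members, so their counts are not separate results. Of the organizer list, Lhx1 and Gsc count here too, Cer1 and Hhex among definitive endoderm genes, Lefty1 and Fst among Nodal genes, and Chrd and Nog among BMP genes. Wnt8a, a Wnt ligand of the streak, was at 10.34 in C1a1 against 4.73 to 9.47 in the other lines. Fgf8, an FGF ligand needed for cells to leave the streak, was at 10.23 against 8.82, 8.14, 9.38, 4.66 and 9.27 in OG2.1, OG2.2, E3, E5 and T9. C1a1 was the highest for Fgf8 and E5 far the lowest. Cyp26a1, which degrades retinoic acid, was at 6.83 against 4.40 to 6.15, and the Wnt target Sp5 was at 9.88, below OG2.1 at 10.10.

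Definitive endoderm genes had 6 of 15 above all others (40%, against 17.9% of all genes) and 2 below. Their median difference was 1.25, or 0.92 without E5, and 10 lay above without OG2.1. Over the 6 members above background on all 6 EpiSC arrays the median was 0.34. The endoderm transcription factor genes Gata6 (8.83 against 4.61 to 7.65), Sox17 (8.60 against 4.69 to 7.65) and Hhex (9.30 against 5.58 to 8.51) were at their highest in C1a1. Trh, the precursor gene of thyrotropin-releasing hormone, went the other way. It was at 9.72 in C1a1 against 12.74, 10.94, 13.45, 10.98 and 11.54 in OG2.1, OG2.2, E3, E5 and T9, a difference of -2.21. None of these 4 passed limma's test. Spink1 was bright in C1a1 (10.51) and brighter in OG2.1 (10.99).

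In Nodal signalling, 6 of 14 tested members lay above all others (42.9%, against 17.9% of all genes) and 0 below. The list's median was 0.45, or 0.26 without E5. Over its members above background on all 6 EpiSC arrays the median was -0.14. The ligand gene Nodal itself, named here outside the rule, was at 8.05 in C1a1, within the 5.54 to 9.61 of the other lines, and its difference of 0.37 became -0.17 without E5. Gdf3, a related ligand, was at 8.33 against 4.74 to 7.30, and at 10.86 in R1. The co-receptor gene Tdgf1 was at 7.89, below E3 at 9.40. Among targets and modulators, Lefty2 was at 7.24 against 4.53 to 6.99 and the activin antagonist Fst at 9.33 against 4.92 to 8.92. Smad4, the shared mediator, was at 12.50 against 11.75 to 12.18. The inhibitors Lefty1 and Lefty2 were thus highest in C1a1, while the ligand Nodal was not.

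Wnt signalling genes had 6 of 18 above all others (33.3%, against 17.9% of all genes) and 0 below, with a median of 0.41. BMP signalling genes had 4 of 15 (26.7%, against 17.9%) and 0 below, with a median of 0.43. The 4 include the BMP antagonists Chrd and Nog. Over members above background on all 6 EpiSC arrays the median was 0.08 for Wnt and 0.21 for BMP genes. The BMP median was 0.15 without E5 and 0.26 without E3, and 9 BMP genes lay above the remaining lines without OG2.1. Id1, a BMP target, was at 8.71 against 5.71 to 7.77. Endoderm markers were higher in C1a1 as a sum, but not each of them. The summed linear level of the 5 definitive endoderm markers, all 5 detected, was 2059 in C1a1 against 173 to 1446 in the other lines. C1a1 was highest for 3 of the 5, while Foxa2 and Cxcr4, named outside the rule, lay within the range of the other lines. Of 8 extraembryonic endoderm markers, Gata4, Sox7, Afp and Ttr were not above background on any EpiSC array. The other 4 summed to 893 in C1a1 against 256 to 611, and C1a1 was highest for 2 of these markers. Their part in the organizer and endoderm values was not tested.

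The labelled cell type was checked against its markers. All 7 EpiSC markers were above background in C1a1, and their summed level of 42003 lay within the 36505 to 54537 of the other lines. Fgf5, a growth factor gene of the epiblast after implantation, was at 10.80 in C1a1 against 9.60 to 10.45 in the other lines and not above background in R1 (4.41). The de novo methyltransferase gene Dnmt3b was at 14.63 against 14.31 to 14.82, and at 12.06 in R1. Pou5f1, the Oct4 gene, was at 12.69 against 13.55, 13.32, 13.53, 14.12 and 12.92 in OG2.1, OG2.2, E3, E5 and T9, the lowest of the 6 by 0.23. Its difference was -0.80 (SE 0.42, limma adjusted p = 0.890), and a second probe gave -0.79. Sox2 was at 9.58 against 8.16 to 8.69, but its second probe read 8.41 against 7.40 to 8.50.

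Other core pluripotency genes went both ways. Of 12 tested, 2 lay above all others and 3 below, against 17.9% of all genes on each side. The median difference was -0.17. Nanog was at 10.98 in C1a1 against 9.49, 10.20, 10.29, 7.53 and 9.52, and at 13.005 in R1. Utf1 was at 9.79 against 10.24 to 11.48 and L1td1 at 10.44 against 10.58 to 12.10. Nanog was thus highest in C1a1 while Pou5f1, Utf1 and L1td1 were lowest there.

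Naive pluripotency genes, which mark ESCs, had 6 of 12 tested members above all others (50%, against 17.9% of all genes) and 0 below. Their median difference was 0.77. Klf2, a Krüppel-like factor gene of the naive state, was at 9.10 in C1a1 against 7.12, 7.00, 6.64, 5.49 and 6.20 in OG2.1, OG2.2, E3, E5 and T9. Its level in R1 was 12.07, so C1a1 lay between the other EpiSC lines and R1. Its difference of 2.61 (SE 0.59) did not pass limma's test (adjusted p = 0.479). Zfp42, the gene of Rex1, was above background among EpiSC lines only in C1a1, at 6.42 and at least 1.77-fold higher, against 13.22 in R1. Fbxo15 was at 6.99 against 5.26 to 6.25, with 12.74 in R1, and Klf4 at 6.13 against 5.34 to 5.79, with 11.29 in R1. The nuclear receptor gene Esrrb was not above background in C1a1 (4.95), with 12.97 in R1. Nr5a2, another nuclear receptor gene, was above background in E3 (8.26), T9 (9.09) and R1 (9.73) but not in C1a1 (4.62). The median level of the list was 7.47 in C1a1, 6.02 to 6.56 in the other lines and 12.2 in R1.

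Imprinted genes lay on both sides of the other lines, and a few of them showed some of the widest gaps. Of 59 listed genes 33 were tested, 9 lay above all others (27.3%) and 6 below (18.2%), against 17.9% of all genes on each side. The median difference was 0.11. Without OG2.1, 14 lay above. At an unadjusted p under 0.05 there were 8 of 33, against 6.02% of all genes, and 0 passed the adjusted test. Cdkn1c, a cyclin-dependent kinase inhibitor gene expressed from the maternal copy, was at 12.78 in OG2.1, 12.19 in OG2.2, 9.97 in E3, 9.25 in E5 and 10.36 in T9. It was not above background in C1a1 (5.13) and read 7.64 in R1. C1a1 was the only array of the 7 without detectable Cdkn1c, at least 46.0-fold lower than the mean of the other EpiSC lines. The other lines spread over more than 3 on the log2 scale, and the difference of -5.78 (SE 1.26) did not pass limma's test (adjusted p = 0.450).

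Cdkn1c lies on chromosome 7 in an imprinted cluster, and its next protein-coding neighbours Slc22a18 and Phlda2 are also expressed from the maternal copy. Phlda2, which limits placental growth in the mouse, was at 8.84, 9.81, 10.33, 9.65 and 10.17 in OG2.1, OG2.2, E3, E5 and T9, at 11.56 in C1a1 and at 7.06 in R1. Slc22a18, a transporter gene, was at 6.98 in C1a1 against 4.84 to 5.82 in the others. Both neighbours were highest in the line in which Cdkn1c was lowest, with differences of 1.80 and 1.66. The next tested neighbours on either side, Tssc4 (7.69 against 7.27 to 7.51) and Nap1l4 (11.88 against 11.64 to 11.84), were named outside the rule and differed by 0.29 and 0.14. Kcnq1, between Cdkn1c and Trpm5, was not among the tested genes.

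Nnat, the gene of neuronatin, is expressed from the paternal copy and lies within an intron of Blcap. It was at 10.64 in OG2.1, 9.73 in OG2.2, 8.38 in E3, 7.90 in E5 and 8.58 in T9, and was not above background in C1a1 (4.51) or R1 (4.76). C1a1 was at least 12.7-fold lower, with a difference of -4.53 (SE 0.95, limma adjusted p = 0.406). A second Nnat probe differed by -1.44. Blcap, named outside the rule, was at 8.03 against 8.64 to 9.53 and was also lowest in C1a1. Cobl was at 7.66 against 5.64 to 7.27, and the growth factor gene Igf2 at 12.44 was within the 8.95 to 12.81 of the other lines.

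**Figure D3:**
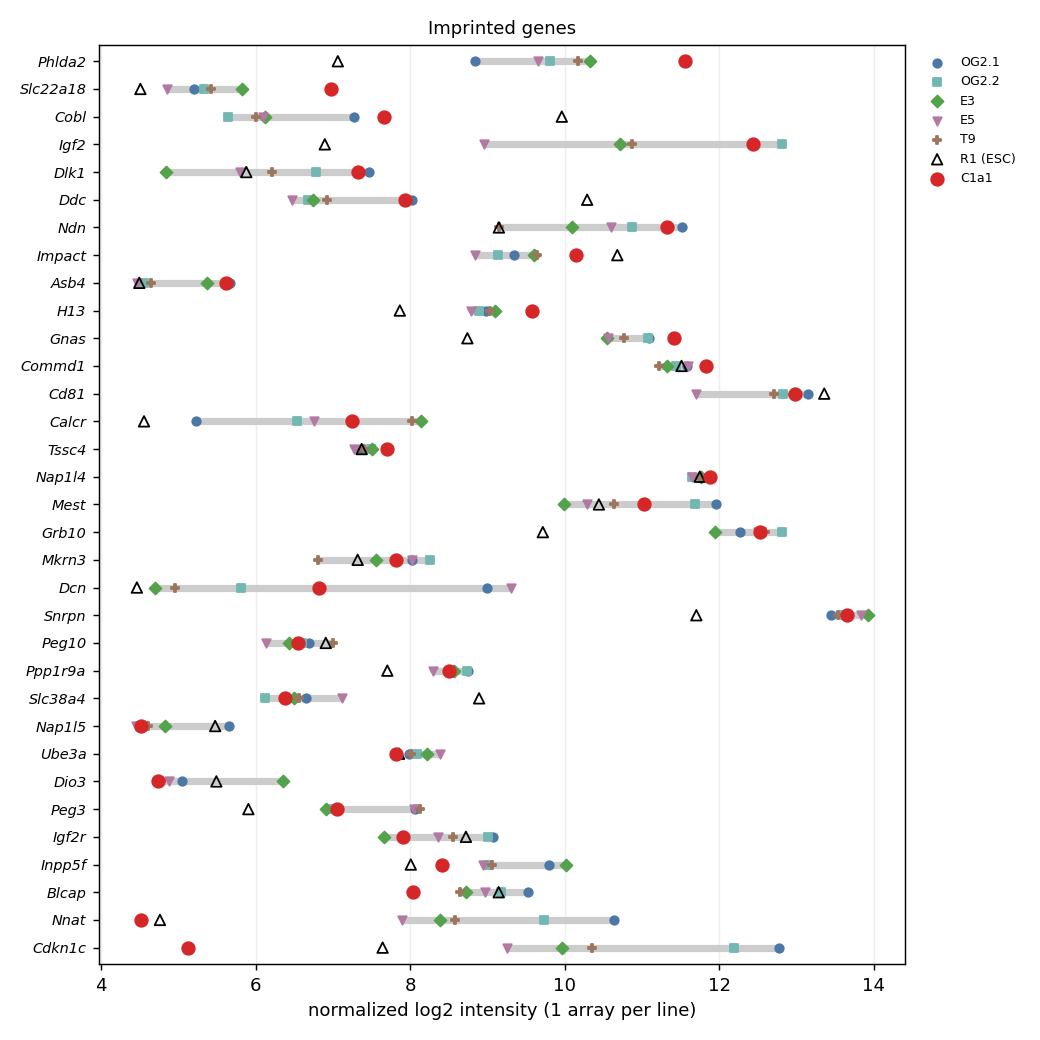
Normalized log2 intensity (horizontal axis) of the 33 tested imprinted genes, ordered by the difference of C1a1 from the mean of the other 5 EpiSC lines. Each symbol is 1 array and the grey bar spans the other 5 lines. Most red circles lie on or next to their bar, Phlda2 and Slc22a18 stand to its right, and Nnat and Cdkn1c stand far to its left.

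Sterol genes presented 2 gaps of at least 1, those of Insig1 and Idi1, in a list that otherwise lay close to the other lines. Of 24 tested genes of cholesterol synthesis and sterol response, 4 lay above all others (16.7%) and 2 below (8.33%), against 17.9% of all genes on each side. The median difference was 0.08. Without E5, 10 lay above, and without E3, 4 lay below. Insig1 was at 8.997 in OG2.1, 9.58 in OG2.2, 9.32 in E3, 7.29 in E5 and 8.94 in T9, and at 8.44 in R1. It was not above background in C1a1 (4.48), at least 10.9-fold lower. All 6 other arrays carried the transcript. The difference was -4.35 (SE 0.77, limma adjusted p = 0.283), and the 2 other Insig1 probes gave -2.23 and -2.40.

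The other gene below all lines was Idi1, the isomerase of isopentenyl diphosphate, at 6.24 in C1a1 against 8.07, 8.19, 8.26, 7.70 and 7.54 (difference -1.72). Its gap below the lowest other line was 1.31. Other genes of the list stayed near the other lines. Pmvk was at 9.70 against 8.65 to 9.56, Hsd17b7 at 10.47 against 9.16 to 10.32, Tmem97 at 10.66 against 9.99 to 10.33 and Lss at 9.56 against 9.45 to 10.47. Hmgcs1 and Insig2, both named outside the rule, were at 14.13 against 13.77 to 14.12 and at 8.21 against 7.81 to 8.51. The paralogue Insig2 was thus within the range of the other lines.

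Fatty acid synthesis genes, many of them SREBP targets as well, had 7 of 16 tested members above all others (43.8%, against 17.9% of all genes) and 1 below. Their median was 0.28. Acss2, which makes acetyl-CoA from acetate, was at 9.23 against 7.78 to 8.42. The desaturase genes Fads2 (9.37 against 7.43 to 8.75), Scd2 (10.47 against 9.26 to 9.88) and Fads1 (12.92 against 11.72 to 12.63) were highest in C1a1. Gpam, an acyltransferase of triglyceride synthesis, was above background only in C1a1, at 6.02 and at least 1.34-fold higher. For the malic enzyme gene Me1, the brighter probe differed by 1.07 and a dimmer one by -0.80, so its direction is uncertain.

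Interferon response genes were highest in C1a1 for 10 of 20 tested members (50%, against 17.9% of all genes), with 1 below all others. Their median difference was 0.89. All 20 were above background in C1a1, against 13 to 16 in the other EpiSC lines and 8 in R1, and for 2 of the 20 C1a1 was the only EpiSC line above background. No list member passed limma's test. The called gene Gbp3 was not in the list. Gbp2 was at 6.71, 6.84, 9.14, 4.73 and 8.20 in OG2.1, OG2.2, E3, E5 and T9 and at 10.19 in C1a1. E3 and T9 came closest to C1a1, and E5 and R1 (4.57) were not above background.

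Gbp2b, adjacent to Gbp3 and Gbp2 on chromosome 3, was likewise brightest in C1a1, followed by E3 and T9. It was at 4.60, 4.38, 7.54, 4.43 and 7.23 in OG2.1, OG2.2, E3, E5 and T9, and at 9.90 in C1a1. Only E3, T9 and C1a1 were above background. The difference was 4.27 (SE 1.34, limma adjusted p = 0.721). Igtp was at 8.08 against 5.14 to 6.49 and Irgm2 at 8.41 against 5.04 to 6.91. The family did not rise as a whole. Irgm1, named outside the rule, was within the range of the other lines by its brightest probe (14.09 against 13.78 to 14.21), while its dimmer probes differed by 1.89 and 0.73. Gbp4, Gbp5, Gbp8, Gbp9, Gbp10, Gbp11, Iigp1 and Tgtp1 were above background on 0 EpiSC arrays. Gbp and immunity-related GTPase genes have near-identical copies, so their probes may share signal.

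Genes of antigen presentation were divided. Tap2, a peptide transporter, was at 8.02 in C1a1 against 5.74 to 7.06, and the immunoproteasome subunits Psmb9 (8.09 against 5.64 to 7.58) and Psmb8 (6.30 against 4.63 to 5.23) followed. Psmb8 was above background only in C1a1, at least 1.63-fold higher. Named outside the rule, Tap1 (5.88 against 5.76 to 6.77), H2-K1 (5.62 against 5.29 to 7.91) and B2m (below OG2.2 at 11.25) lay within the range of the other lines. H2-D1, also outside the rule, lay 0.91 above the highest other line, with a difference of 1.10. Oasl2 was at 7.67 against 4.74 to 7.45, and Ifitm1 at 8.05 was below OG2.1 at 8.16. Of the 18 list members with a promoter window, 8 held the response element printed above for the Gbp genes and 5 the gamma-activated site. Counted by window, 8 and 5 of their 22 matched, against 8.56% and 8.30% of all windows. Members were chosen as interferon response genes, so these shares describe the list and say nothing about C1a1. Of the 8 with the response element, Bst2, Gbp2, Ifitm2 and Isg15 lay above all other lines in C1a1. B2m, Ifitm3, Rsad2 and Stat2 did not.

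Integrated stress response genes were lower in C1a1 than the mean of the other lines for 21 of 23 tested members, against 51.2% of all genes. C1a1 lay below all 5 others for 12 of the 23 (52.2%, against 17.9% of all genes) and above for 0, with a median difference of -0.78. Leaving out any 1 other line kept the median between -0.67 and -0.85. No member passed limma's test, and 0 had a gap of at least 1, so the pattern consists of many small gaps.

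Atf4, the transcription factor gene of the response, was at 8.38, 8.44, 10.62, 9.30 and 9.32 in OG2.1, OG2.2, E3, E5 and T9 and at 7.65 in C1a1. Mthfd2, an enzyme of mitochondrial one-carbon metabolism, was at 7.90 against 8.57, 8.61, 9.25, 9.67 and 10.13. In both, OG2.1 and OG2.2 were the next lowest lines. Aldh18a1, of proline synthesis, was at 8.18 against 8.95 to 10.23 and Herpud1, of protein degradation at the endoplasmic reticulum, at 8.92 against 9.53 to 10.63. The asparagine synthetase gene Asns, named outside the rule, was at 11.26 against 11.50 to 12.87. The largest difference was that of Chac1, a glutathione-degrading enzyme, at -1.85, but OG2.1 at 7.82 was below C1a1 at 8.17 and T9 reached 12.28. Trib3 was not above background in C1a1 (5.15), OG2.1 (5.09) or OG2.2 (5.22) and read 7.59 in T9.

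Promoters of Herpud1 and Asns are shown because both were below all other lines and hold the C/EBP-ATF response element through which ATF4 acts. They are at chr8:94386179-94386478 on the plus strand and chr6:7693160-7693459 on the minus strand of GRCm38.p6, each written 5′ to 3′ on its gene's strand. Capitals mark the element's core (TGATGNAA, both strands).
Herpud1: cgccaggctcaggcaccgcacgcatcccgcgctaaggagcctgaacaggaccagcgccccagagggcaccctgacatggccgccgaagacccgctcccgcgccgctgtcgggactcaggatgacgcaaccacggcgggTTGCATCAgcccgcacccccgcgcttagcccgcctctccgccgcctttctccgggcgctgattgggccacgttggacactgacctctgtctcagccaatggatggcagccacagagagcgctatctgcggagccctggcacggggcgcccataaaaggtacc
Asns: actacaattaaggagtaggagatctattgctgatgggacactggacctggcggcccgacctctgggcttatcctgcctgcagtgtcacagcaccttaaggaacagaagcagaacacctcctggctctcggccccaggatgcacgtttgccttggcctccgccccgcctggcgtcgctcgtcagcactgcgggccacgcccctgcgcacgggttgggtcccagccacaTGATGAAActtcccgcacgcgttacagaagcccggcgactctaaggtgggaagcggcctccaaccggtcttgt
The core was found in 8 of 20 list members with a window. Counted by window it was in 8 of their 22, against 3.97% of the 32851 windows. Members were chosen as stress response genes, so this share describes the list and says nothing about C1a1.

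**Figure D4:**
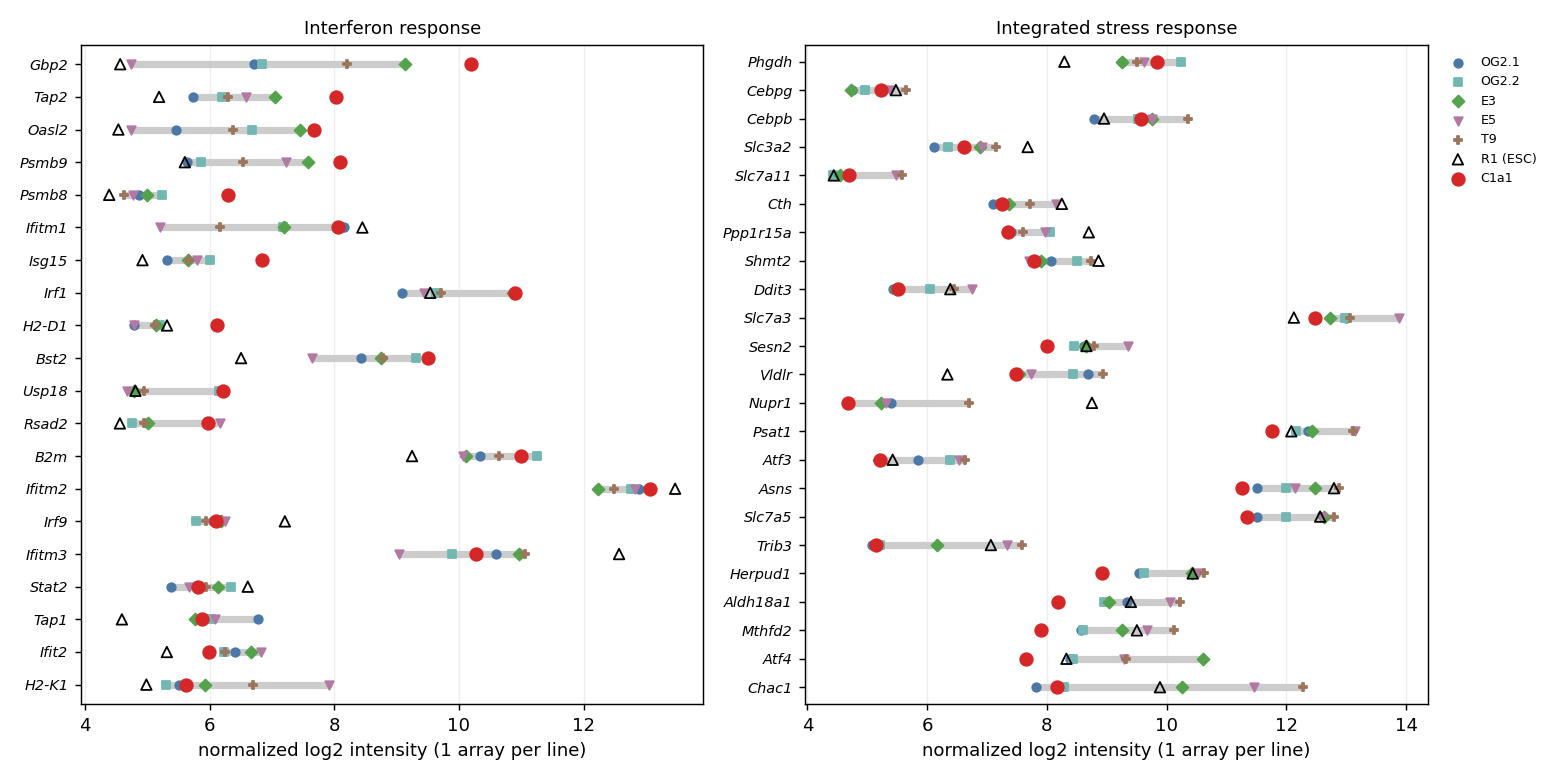
Normalized log2 intensity (horizontal axes) of the 20 tested interferon response genes (left) and the 23 tested integrated stress response genes (right), each ordered by the difference of C1a1 from the mean of the other 5 EpiSC lines. Each symbol is 1 array and the grey bar spans the other 5 lines. On the left C1a1 (red) lies to the right of the bar for 10 genes, and on the right it lies to the left of the bar for 12.

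Cell cycle genes did not stand apart as a list, although Plk1 fell. Of 26 tested, 5 lay above all others (19.2%) and 5 below (19.2%), against 17.9% of all genes on each side. The median difference was -0.01. The replication genes Mcm3 (9.20 against 9.75 to 10.23) and Mcm2 (10.85 against 11.03 to 11.59) and the kinase gene Cdk1 (10.74 against 10.93 to 11.56) were lowest in C1a1 by less than 1. The 5 above all others, named outside the rule, were Rrm2, Cdc6, Mcm7, Pcna and Cdt1, with gaps of 0.26, 0.23, 0.20, 0.07 and 0.01. Replication genes thus lay on both sides. Cyclins Ccnd2 (10.27) and Ccnd1 (11.63) were within the range of the other lines.

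Epithelial genes divided as well, with 5 of 18 above all others (27.8%) and 4 below (22.2%), the called St14 among the latter. Of all genes, 17.9% lay on each side. The keratin genes Krt8 (12.67 against 10.56 to 12.18) and Krt19 (9.10 against 5.996 to 8.43) and the claudin gene Cldn3 (8.99 against 6.75 to 8.60) were highest in C1a1. Grhl2, a transcription factor gene of epithelia, was at 7.40 against 8.19 to 9.47 and Rab25, a vesicle transport gene, at 7.25 against 7.77 to 9.78. Both were lowest in C1a1, on the side of St14.

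FGF and ERK feedback genes had 4 of 17 on each side (23.5%, against 17.9% of all genes), with a median of 0.01. Egr1, an early response gene like Fos, was at 12.50 against 10.68 to 11.84. Etv5, named outside the rule, was at 8.47 against 8.998 to 9.51, Spry4 was at 6.34 against 6.59 to 7.73, and the ligand gene Fgf4 was not above background (4.54), at least 1.27-fold lower. Dusp4 at 10.89 was below OG2.2 at 11.20.

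Hox genes were not above background in C1a1 for any of the 18 tested, as in E3 and T9, while 17 were in OG2.2, 6 in OG2.1, 1 in E5 and 5 in R1. Hoxc6, for example, was at 9.77 in OG2.2 and 4.98 in C1a1. The list's median difference of -0.52 became -0.08 without OG2.2, with 7 of 18 differences positive.

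**Figure D5:**
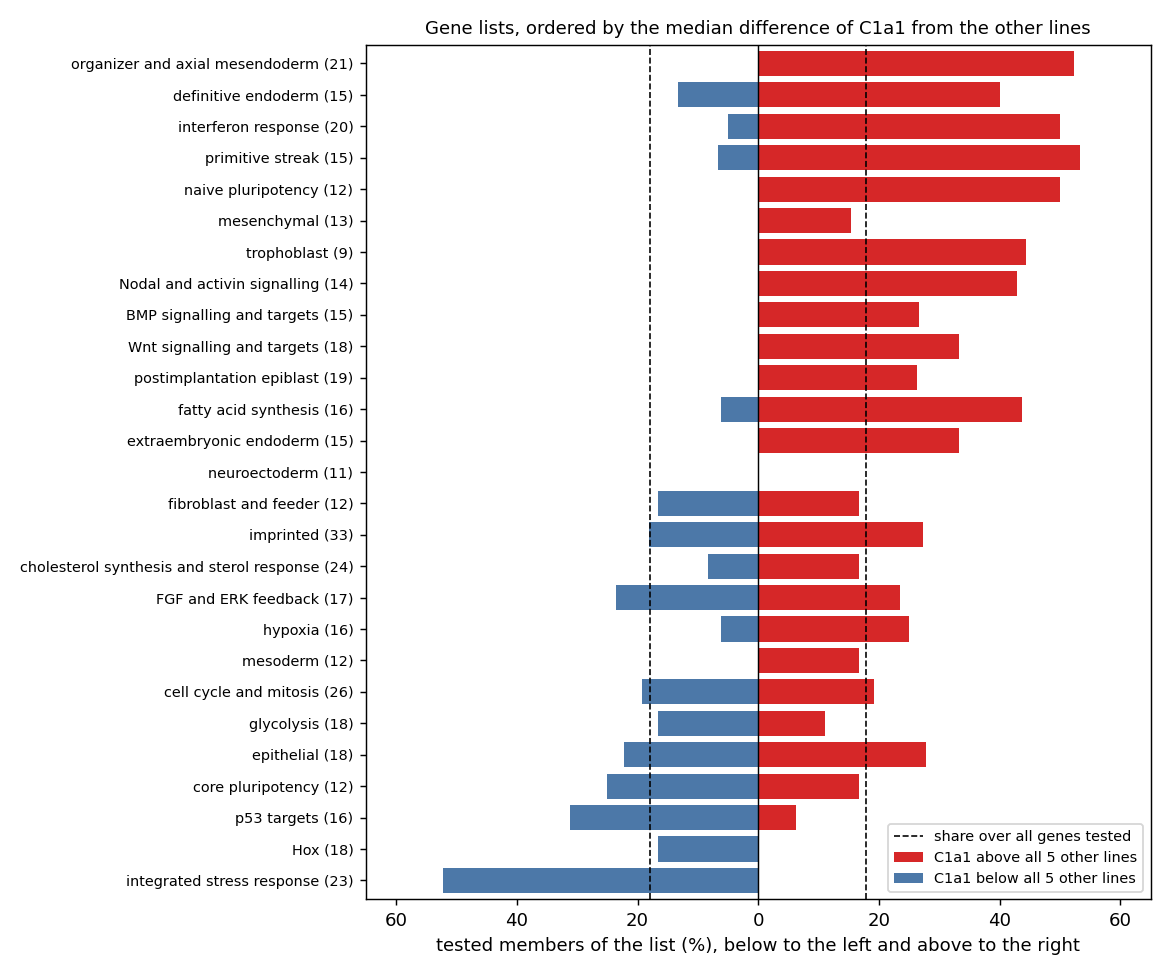
Share of each list's tested members (horizontal axis, percent) for which C1a1 lay above all 5 other EpiSC lines (red, to the right) or below all 5 (blue, to the left). Lists with at least 9 tested members are shown, ordered by their median difference, with the number tested in brackets. Dashed lines mark the share over all 8871 genes, 17.9% on each side, and the longest bars are those of primitive streak, organizer, stress response, interferon and naive pluripotency genes.

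Panels of other cell types gave the following levels. Of 11 fibroblast and feeder markers, Col1a2, Col3a1, Lum and Postn were not above background on any EpiSC array, and the 7 tested summed to 2948 in C1a1 against 1420 to 3911 in the other lines. Of 5 trophoblast markers, Elf5, Tpbpa and Plac1 were not above background, and the other 2 summed to 104 against 57.4 to 838. Of 3 neural markers, Sox1 and Pax6 were not above background and 1 was tested, at 849 against 714 to 1167. In these 3 panels C1a1 lay within the range of the other lines. The longer lists differed from one another. Of 11 tested neuroectoderm genes, 0 lay above or below all others. Of 9 trophoblast genes, 4 lay above (44.4%, against 17.9% of all genes) and 0 below, with a median of 0.62, or 0.39 without E5. Krt8 of the epithelial list is among these 4. The part of these cell types in the other values was not tested.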

How the data were processed

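RNA of each line was amplified to biotin-labelled cRNA and hybridized to 1 Illumina array in 1 colour, per the labels. The authors deposited bead-summarised intensity values on a linear scale, not normalized, and a detection p-value for each of 25697 probes. They also deposited log2 values normalized between arrays, which matched the signals of their own arrays (lowest r of deviations 0.858, highest with another array 0.293). BeadStudio 3.2, RMA and lumi appear in the submitters' processing notes, with order and settings not given in the sources used here. Slide and scan are not given either.

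Intensities were background corrected and quantile normalized with neqc (limma 3.58.1, R 4.3.3, offset 16). Of 12876 probes kept at a detection p under 0.01 on at least 1 EpiSC array, 12145 had a gene symbol, and the brightest probe represented each of 8871 genes, 2339 of which had several. Limma compared C1a1 with the other 5 lines, 2-sided, with 4 residual degrees of freedom and Benjamini-Hochberg adjustment. The lone C1a1 array was assumed to vary like the other lines. In a simulation that altered 200 of the 8871 genes, the test found 0% of those set to a log2 change of 1 (0 false calls), 53% at a change of 2 (4 false calls) and 91% at a change of 4 (15 false calls). The simulated noise was normal, with spreads drawn from limma's own fitted prior, so the test's assumptions held in it. These shares may be too high for genes that vary widely among the lines, such as Cdkn1c, not called at a difference of -5.78. The number of arrays limits the precision, and median signals ran from 123.5 to 131.3.

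The members, the 30 gene lists and the naming rule were chosen with earlier results of these data known. The rule named Lhx1, Gsc, Cdkn1c and Insig1, the 10 widest gaps each way, all calls, the cell type markers and up to 6 members of each list with the largest differences. Lists were described by counts and medians and not tested, and they share members. Promoters came from RefSeq (GRCm38.p6). For lower bounds of folds, the dim side was set on each array to its dimmest detected probe, unless the gene's probe was brighter. Alternatives were the authors' log2 values, raw signals, median scaling, EpiSC arrays alone, other detection filters, averaging probes of a gene, testing every probe, a trended robust variance, leaving out each other line, and averaging OG2.1 with OG2.2.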

Additional observations from a re-analysis of the deposited data

Results flagged for a closer look

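Among the 5 other EpiSC lines, 1 line stood far from the remaining 4 for 11 of the 112 named genes that were screened, where chance flags about 1 in 20 groups. E5 was the distant line for 7 of them, at 8.81 for Ccl27a, 7.29 for Insig1, 4.66 for Fgf8, 4.92 for Fst, 7.53 for Nanog and 5.996 for Krt19, each the lowest, and at 6.66 for Fgf4, the highest. For these genes the mean that C1a1 was compared with was pulled toward E5. E3 stood apart for Zfp42 at 5.55 and for the Y-linked gene Eif2s3y at 9.96, OG2.1 for Fbxo15 at 5.26 and OG2.2 for Dusp4 at 11.20. For Ccl27a (6.30) and Insig1 (4.48), C1a1 lay below E5 as well.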

How the results depend on the processing

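No paired analysis was possible because each line had 1 array and the replicate numbers only name samples. The count of limma calls was 6, against 1 on the deposited log2 values, 3 without background correction, 2 without a detection filter, 3 for genes detected on all 6 EpiSC arrays, 0 with OG2.1 and OG2.2 averaged, and 0 to 1 with 1 other line left out. All the calls made under these settings were among the 6. Genes at least 1 above the highest other line numbered 47, against 98, 16, 13 and 80 on the deposited values, without background correction, for genes detected on all 6 arrays and with OG2.1 and OG2.2 averaged, and 52 to 96 with 1 line left out (96 without OG2.1, 73 without OG2.2, 73 without T9). Genes at least 1 below the lowest numbered 42, against 84, 18 and 25 under the first 3 of these settings, and 47 to 64 with 1 line left out (64 without T9). Without a detection filter 2757 genes lay above and 2919 below all others. The difference of Dnmt3b was -0.13 over the mean of its probes, that of Nodal -0.17 without E5 (to 0.85 without E3), and that of Insig2 -0.16 over the mean of its probes, -0.0044 with OG2.1 and OG2.2 averaged and -0.093 to 0.084 with 1 line left out. That of Frzb was 0.13 on the deposited values, 0.091 with OG2.1 and OG2.2 averaged and -0.36 to 0.25 with 1 line left out. The cause was not tested. The interferon list's median was 1.27 on the deposited values, 0.45 without background correction and 0.47 for its 10 members detected on all 6 arrays. Without background correction the medians were also smaller for organizer (0.85), primitive streak (0.38), definitive endoderm (0.79), Nodal (0.20), Wnt (0.16), BMP (0.18), naive pluripotency (0.49) and stress response genes (-0.50). Genes near background have understated folds.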

Other observations

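The X chromosome carried 5 of the 47 genes at least 1 above the highest other line (Maob, Pnma3, Spry3, Xlr4a and Zcchc18) and 0 of the 42 at least 1 below the lowest, a view chosen after the values were seen. Maob, a monoamine oxidase gene, was at 6.71 in C1a1 against 4.48 to 5.25, Pnma3 at 6.55 against 4.37 to 5.19 and Spry3, of the Sprouty family, at 6.61 against 4.56 to 4.97. In the other EpiSC lines these genes read below the dimmest detected signal of any array (5.54 in T9 to 5.70 in E5). Maob, Pnma3 and Spry3 thus entered the tested set only through C1a1, the line in which they were high. Zcchc18 was at 11.34 against 9.03 to 10.34, and at 6.02 in R1. The X chromosome held 298 of the 8871 genes tested. Over these, the median difference was -0.06, against -0.01 for autosomal genes, 14.4% lay above all other lines against 18.0%, and 20.5% below against 17.8%. Xist, the RNA that coats an inactive X chromosome, read 8.33 in C1a1, within the range of the other lines, and the Y-linked Eif2s3y was not above background in C1a1, at 4.37.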
